A study of Mus musculus with 2 samples.

Results

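SRCAP regions that lay outside every annotated transcript but close to a protein-coding gene were examined in mouse embryonic stem cells (mESC). Of 15653 regions obtained by merging the overlapping SRCAP peaks of both replicates, 1312 (8.38%) met this rule. The midpoint of such a region lay in no transcript of GENCODE M21, over 2 kb and up to 50 kb from the nearest transcription start site (TSS) of a protein-coding gene and over 2 kb from every other TSS, and under 50% of its bases were soft-masked, the marking that the assembly gives to repeats. In order, 6035 regions had a midpoint outside transcripts, 3851 of these were over 2 kb from every TSS, 1853 of these were within 50 kb of a coding TSS, and 1312 of these were under the limit on masked bases. The rule used position and repeat content only, so the replicate in which a region was called, its score and its base composition were free to vary.

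SRCAP was mapped by CUT&Tag, in which an antibody directs the transposase Tn5 to a chromatin protein so that DNA near it is cut and tagged. Both samples were SYAT cells, a line made from CGR8 mESC in which both Srcap alleles carry YPet, a yellow fluorescent protein, fused to an auxin-inducible degron (AID) and in which the plant receptor OsTir1 is stably expressed, and an anti-GFP antibody that binds YPet was used. They came from the control condition ("NT" in the labels) of cells kept in auxinole, an inhibitor of the auxin response, and in serum with LIF, so the tagged protein was present in both. SYAT is 1 line, and neither untagged nor auxin-treated cells, nor any control library, were analysed here. The design thus holds 1 group of 2 replicates and no contrast between conditions. Each replicate used 200000 cells and 1 h of transposition, and no label of these samples says whether they came from separate cultures, although the study's general reporting describes its replicate experiments as grown independently.

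There were 6158 peaks in replicate 1 and 12958 in replicate 2, each list with 6 mitochondrial peaks that were dropped. A peak carries a whole-number score of at least 13, which follows from the q-value of the peak caller and depends on sequencing depth. Depth is unknown here, so scores were ranked and compared within a replicate only. Peak lists hold no transcript levels, so the identity of the cells could not be checked against marker genes.

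SRCAP is the ATPase of a chromatin remodeling complex that replaces histone H2A in nucleosomes with the variant H2A.Z. H2A.Z is best known from the nucleosomes beside active and poised promoters, and it is also found at enhancers, the regulatory elements that bind transcription factors away from promoters and can act on a gene at a distance. In mESC, enhancers of pluripotency genes are bound by factors such as POU5F1, SOX2, NANOG, ESRRB and KLF4, while the zinc finger protein CTCF marks boundaries of chromatin domains. A position outside transcripts does not make a region an enhancer, and each region is named below by the nearest coding gene, which need not be the gene it acts on.

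The sequences at the regions best placed in both replicates show how varied they were. They come from the RefSeq copy of GRCm38 (the assembly of mm10), are given on the plus strand and cover the middle 250 bp of a region. Capitals mark letters that match any of the 15 motifs searched for, of which 14 are spelled out further on and the degenerate CTCF core is given by name. These 6 regions had the best worst rank by score.
Ly6c2, chr15:75086532-75086781: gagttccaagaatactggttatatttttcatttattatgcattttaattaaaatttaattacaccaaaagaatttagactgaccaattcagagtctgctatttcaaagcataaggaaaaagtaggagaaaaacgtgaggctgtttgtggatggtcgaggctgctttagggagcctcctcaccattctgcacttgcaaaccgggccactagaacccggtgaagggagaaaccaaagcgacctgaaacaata
Gm21860, chrY:90718598-90718847: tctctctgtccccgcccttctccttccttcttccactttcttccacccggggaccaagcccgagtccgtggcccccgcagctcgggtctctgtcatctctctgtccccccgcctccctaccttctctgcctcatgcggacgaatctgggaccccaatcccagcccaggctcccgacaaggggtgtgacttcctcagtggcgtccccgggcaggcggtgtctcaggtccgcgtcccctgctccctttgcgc
Rps6ka1, chr4:133910857-133911106: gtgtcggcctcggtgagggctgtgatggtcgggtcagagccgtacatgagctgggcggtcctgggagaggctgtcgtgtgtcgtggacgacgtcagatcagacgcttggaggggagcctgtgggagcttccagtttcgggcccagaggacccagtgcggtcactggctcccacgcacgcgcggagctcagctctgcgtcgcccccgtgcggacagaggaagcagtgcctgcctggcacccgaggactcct
Ccnl1, chr3:65974593-65974842: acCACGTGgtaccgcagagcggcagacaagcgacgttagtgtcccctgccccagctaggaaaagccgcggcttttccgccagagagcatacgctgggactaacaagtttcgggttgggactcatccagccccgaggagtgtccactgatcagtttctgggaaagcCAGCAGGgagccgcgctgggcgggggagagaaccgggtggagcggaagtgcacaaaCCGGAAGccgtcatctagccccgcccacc
Nsd1, chr13:55190305-55190554: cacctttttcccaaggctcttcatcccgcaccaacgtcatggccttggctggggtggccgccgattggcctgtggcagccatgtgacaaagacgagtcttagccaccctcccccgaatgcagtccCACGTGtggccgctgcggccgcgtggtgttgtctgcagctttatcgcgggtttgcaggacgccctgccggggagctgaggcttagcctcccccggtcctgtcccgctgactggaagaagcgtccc
Dus1l, chr11:120800209-120800458: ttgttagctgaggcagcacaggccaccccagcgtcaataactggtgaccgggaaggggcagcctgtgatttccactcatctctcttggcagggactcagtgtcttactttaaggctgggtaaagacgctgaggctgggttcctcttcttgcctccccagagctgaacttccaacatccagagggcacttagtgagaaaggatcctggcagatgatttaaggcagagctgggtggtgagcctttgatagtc

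The stretches at Rps6ka1, Ccnl1 and Nsd1 were rich in CpG dinucleotides, with 21, 19 and 18 of them in 250 bp, whereas that at Dus1l held 3 and that at Ly6c2 held 5. Their GC content ranged from 39.6% at Ly6c2 to 67.2% at Rps6ka1. The Ccnl1 stretch held an E-box, an ETS and a ZIC match, the Nsd1 stretch held an E-box, and the other 4 held no match to the motifs.

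A second set shows regions at genes of pluripotency and signalling that were found in both replicates with the best worst rank. With them is the region upstream of Nanog, which was found in replicate 2 only and was chosen after its values were seen. The region at Tcf7l1 had the same worst rank as that at Klf4 (4852) and is not printed, and its middle 250 bp held no match.
Gbx2, chr1:89940242-89940491: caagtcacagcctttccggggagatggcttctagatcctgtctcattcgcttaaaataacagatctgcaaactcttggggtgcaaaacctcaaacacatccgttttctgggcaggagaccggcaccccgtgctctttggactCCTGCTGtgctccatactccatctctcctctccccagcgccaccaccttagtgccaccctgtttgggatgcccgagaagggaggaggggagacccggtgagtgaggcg
Klf4, chr4:55514768-55515017: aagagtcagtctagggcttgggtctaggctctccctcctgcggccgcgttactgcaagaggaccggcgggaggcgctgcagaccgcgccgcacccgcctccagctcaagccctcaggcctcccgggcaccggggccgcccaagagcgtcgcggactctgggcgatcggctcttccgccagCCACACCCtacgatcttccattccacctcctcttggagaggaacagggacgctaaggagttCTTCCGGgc
Id2, chr12:25124531-25124780: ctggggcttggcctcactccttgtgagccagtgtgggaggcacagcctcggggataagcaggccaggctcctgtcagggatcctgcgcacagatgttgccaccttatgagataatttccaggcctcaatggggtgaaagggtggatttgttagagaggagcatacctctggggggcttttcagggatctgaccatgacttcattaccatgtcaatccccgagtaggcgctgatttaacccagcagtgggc
Lif, chr11:4302493-4302742: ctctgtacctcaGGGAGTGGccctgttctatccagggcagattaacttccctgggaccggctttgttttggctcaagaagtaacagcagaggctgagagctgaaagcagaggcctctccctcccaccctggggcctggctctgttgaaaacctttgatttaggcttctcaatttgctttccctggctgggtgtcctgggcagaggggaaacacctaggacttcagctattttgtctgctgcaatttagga
Nanog, chr6:122702637-122702886: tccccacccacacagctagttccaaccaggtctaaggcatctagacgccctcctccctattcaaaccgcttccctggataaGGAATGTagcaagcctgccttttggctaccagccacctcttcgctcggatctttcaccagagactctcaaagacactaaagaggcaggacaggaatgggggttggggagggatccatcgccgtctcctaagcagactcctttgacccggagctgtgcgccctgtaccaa

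Among these 5, the stretch at Klf4 was the most CpG-rich, with 22 CpG and a GC content of 67.2%, and it held a KLF and an ETS match. The Lif stretch held 1 CpG and a KLF match, the Gbx2 stretch held a ZIC match, the Nanog stretch held a TEAD match, and the Id2 stretch held none.

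Most of these intergenic regions were called in a single replicate, as were most SRCAP regions of any kind. Of all 15653 merged regions, 3434 were covered in both replicates. Peaks of both replicates covered 134 of 1312 regions, or 10.2% (95% Wilson interval 8.69 to 11.97%), while 308 regions were covered in replicate 1 only and 870 in replicate 2 only. Seen from replicate 1, 30.3% of its 442 regions were also covered in replicate 2. Seen from replicate 2, 13.3% of its 1004 regions were also covered in replicate 1. Intervals of shares and densities cover counting error only.

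The share covered in both replicates was well below that of promoters and nearer to that of other distal regions. Of 7736 promoter regions, with a midpoint within 1 kb of a TSS, 29.8% were covered in both, and the odds ratio of the intergenic regions against them was 0.268 (Fisher's exact test, two-sided, p = 6.65e-57 after Benjamini-Hochberg adjustment over 6 tests). Of 2120 intronic regions over 2 kb from every TSS, 7.78% were covered in both, with an odds ratio of 1.35 (exact test, adjusted p = 0.0303). That call did not hold for peaks with a score of at least 50 (adjusted p = 0.289), for lists of equal length (adjusted p = 0.279), or when the peaks had to overlap over 50% or more of each (adjusted p = 0.129), each by the exact test. Of 787 gene-poor intergenic regions, over 50 kb from any coding TSS, 8.51% were covered in both, with an odds ratio of 1.22 (exact test, adjusted p = 0.331). Regions of 1 library are not replicates, so each of these tests describes the 2 libraries and not the condition.

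Scores of the intergenic regions were below those of promoter regions in both lists, and in replicate 2 above those of the other distal regions. The median score was 24 in replicate 1 (quartiles 21 and 35, highest 153) and 30 in replicate 2 (quartiles 22 and 43, highest 453). In replicate 1, 10.9% of them reached a score of 50, against 25.7% of promoter regions, and in replicate 2 it was 18.4% against 38.9%. For intronic regions it was 7.12% in replicate 1 and 11.5% in replicate 2, and for gene-poor intergenic regions 10.5% and 10.2%. They made up 442 of the 6141 regions with a peak in replicate 1 and 1004 of the 12946 with a peak in replicate 2, and 16 of them ranked within the first 500 peaks of replicate 1 and 11 within the first 500 of replicate 2. Their peaks had a median width of 298.5 bp in replicate 1 and 326.5 bp in replicate 2, where those of promoter regions measured 350 bp and 403 bp, those of intronic regions 292 bp and 312 bp and those of gene-poor regions 297 bp and 321 bp.

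The chance that a region was also called in the other replicate moved with its score. Of the intergenic regions scored 13 to 19 in replicate 2, 1.68% were also covered in replicate 1, against 13.5% of those scored 30 to 49, 31.3% of those scored 50 to 99 and 63.2% of the 19 that reached 100. In replicate 1 the share rose from 15.6% at scores of 13 to 19 to 65.1% at 50 to 99, and all 5 regions that reached 100 were also covered in replicate 2. These 5 lay nearest to Ly6c2, Ccnl1, Gm21860, Ctrb1 and Dock2, named here after their values were seen. Promoter regions stood higher at like scores, with 26.01% of those scored 30 to 49 in replicate 2 and 49.1% of those scored 50 to 99 also covered in replicate 1. Intronic regions of those scores stood at 14.03% and 31.58%.

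**Figure D1:**
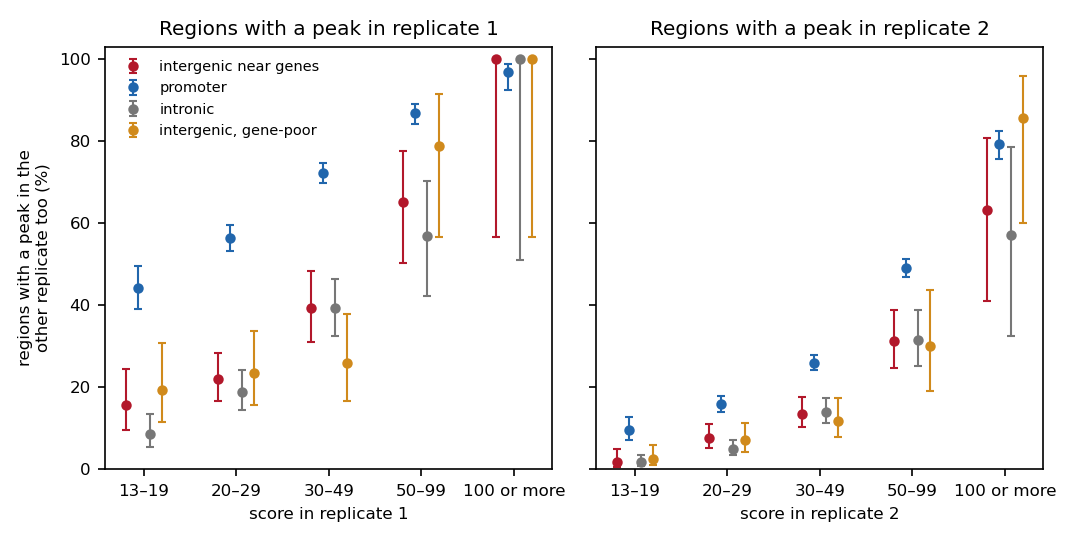
Share of regions with a peak in 1 replicate that also had a peak in the other (%, vertical axis) by score in replicate 1 (left) and replicate 2 (right), with points for the share and bars for the 95% Wilson interval, for intergenic regions near genes, promoter, intronic and gene-poor intergenic regions. In replicate 2, 31.3% of the intergenic regions scored 50 to 99 recurred in replicate 1, against 49.1% of promoter regions of the same scores.

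Regions covered in both replicates scored higher than regions covered in 1. In replicate 1 the median score was 32.5 for the 134 regions found in both and 23 for the 308 found there alone, and in replicate 2 it was 49 against 28.

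**Figure D2:**
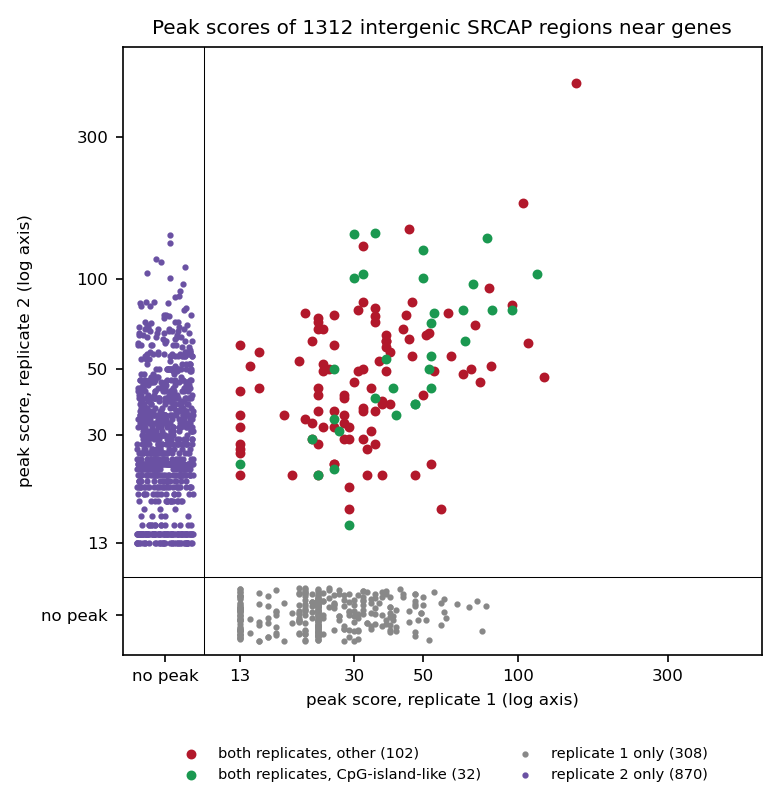
Peak score in replicate 1 (horizontal, log axis) against replicate 2 (vertical, log axis) for each of the 1312 intergenic regions, with regions that lack a peak in a replicate spread at random within the strip labelled no peak and, among regions found in both, those with a window rich in CpG (CpG-island-like) in green. The region near Ly6c2 stands farthest up, at 153 and 453, and the 870 regions called in replicate 2 only form the densest strip.

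Ly6c2 encodes a surface antigen of monocytes, and a region 25.04 kb downstream of its TSS (chr15:75086276-75087038) had the best worst rank, with a score of 153 in replicate 1 and 453 in replicate 2. It ranked 68th and 16th in the lists. The next, near the gene model Gm21860 on chromosome Y, scored 104 and 180. Both lay in sequence with copies elsewhere in the chromosomes: 47.3% of the 31-mers of the first region and 75.2% of the second occurred at another place. The region 5.99 kb downstream of Arhgap25, a regulator of small GTPases, scored 96 and 82, and 84.1% of its 31-mers occurred elsewhere.

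The other 9 of the 12 regions with the best worst rank held no 31-mer that occurred elsewhere. A region 23.2 kb upstream of Rps6ka1, which encodes a kinase that acts below ERK, scored 80 in replicate 1 and 137 in replicate 2. A region 16.5 kb upstream of Ccnl1, a cyclin linked to splicing, scored 115 and 104. A region 19.4 kb upstream of Nsd1, a methyltransferase for lysine 36 of histone H3, scored 72 and 96.

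A region 3.93 kb upstream of Dus1l, which modifies transfer RNA, scored 81 and 93, and a region 6.59 kb upstream of Elovl5, a fatty acid elongase, scored 50 and 125. The regions near Nkain1 (50 and 101), Fer (96 and 79), Akna (67 and 79) and Zfp869 (83 and 79) completed the 12. Those of Akna and Zfp869 lay within 0.297 kb and 0.01 kb of a TSS that RefSeq gives to the same gene, so they are intergenic by GENCODE M21 but not by RefSeq. Of the 12 nearest genes, Rps6ka1 and Fer had a SRCAP peak at their own promoter by GENCODE M21 in both replicates, and Nsd1 had one in replicate 2 only. The other 9 had none by that annotation. Among all coding genes, 34% had such a peak in either replicate and 12% in both.

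RefSeq placed some of the other regions inside genes as well. In its annotation of the same assembly, 206 of the 1312 midpoints (15.7%) lay inside a transcript, against 11.8% of eligible tiles, and 110 (8.38%) lay within 1 kb of a TSS, against 1.99% of tiles. Eligible tiles are the 916494 windows of 300 bp, 274.948 Mb in all, that meet the same rule on position and masked bases. Both criteria together took in 241 regions (18.4%, against 12.6% of tiles) and 28 of the 134 found in both replicates. Among these 28 were the region near Lif and regions near Kif1a, Chd1l and Zfp90. The RefSeq TSS nearest to each belonged to a gene model without an established name. It lay 17.15 kb from the region near Lif, 0.119 kb from that near Kif1a, 0.236 kb from that near Chd1l and 15.9 kb from that near Zfp90.

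Base composition set the intergenic regions apart from the sequence they were drawn from and from promoters alike. In 300 bp around the midpoint the median GC content was 52.3% (quartiles 48.0 and 56.7%), against 43.3% in eligible tiles, 63.0% in promoter regions, 50.3% in intronic regions and 49.3% in gene-poor intergenic regions. In the regions of replicate 1 the median was 53.3% and in those of replicate 2 it was 52.0%. The observed number of CpG divided by that expected from the C and G content had a median of 0.299, against 0.154 in tiles, 0.725 in promoter regions and 0.236 in intronic regions. GC content also moves the yield of amplified libraries, and its part in the calling of these peaks was not tested.

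**Figure D3:**
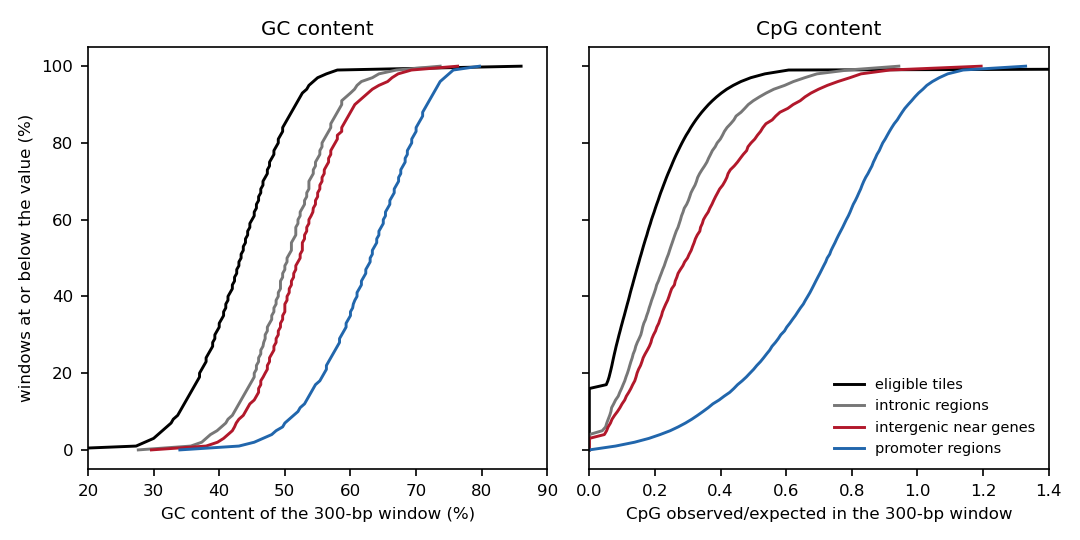
Cumulative share of windows (%, vertical axis) by GC content (left, %) and by CpG observed/expected (right, a ratio) in 300 bp for the intergenic regions near genes, promoter regions, intronic regions and eligible tiles. The curve of the intergenic regions lies between those of tiles and promoters on both axes, with medians of 52.3% GC and 0.299.

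A minority resembled CpG islands, the CpG-dense stretches found at many mouse promoters. With a GC content of at least 50% and an observed/expected ratio of at least 0.6, 128 regions (9.76%, 95% Wilson interval 8.27 to 11.5%) were CpG-island-like, against 0.295% of tiles, 66.8% of promoter regions, 4.06% of intronic regions and 3.94% of gene-poor intergenic regions. They were found in both replicates more often than the other regions, 32 of 128 (25%) against 102 of 1184 (8.61%), with an odds ratio of 3.54 (exact test, adjusted p = 7.72e-07). They also scored higher, with a median of 35 against 23 in replicate 1 and of 38 against 28 in replicate 2.

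Among regions of like score the CpG-island-like ones had the larger share in each of 3 score bins, but the intervals overlap in every bin and no test was run within bins. Of the CpG-island-like regions scored at least 50 in replicate 2, 19 of 39 (48.7%, interval 33.9 to 63.8%) were covered in replicate 1, against 45 of 146 others (30.8%, interval 23.9 to 38.7%). At scores of 30 to 49 the shares were 21.1% (interval 11.1 to 36.3%) and 12.46% (9.09 to 16.8%), and at 13 to 29 they were 14.7% of 34 (6.45 to 30.1%) and 4.72% of 466 (3.14 to 7.04%). RefSeq placed 32.03% of the CpG-island-like regions in a transcript or within 1 kb of a TSS, against 16.9% of the others. Without every region that RefSeq annotates, the CpG-island-like share was 8.12%.

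Motif matches were counted in the same 300-bp windows, on both strands, for 15 short consensus strings, and each share is given for the intergenic regions and for eligible tiles. As motif counts follow base composition, shares are also given for the 686 regions and 212740 tiles whose GC content lay in the middle of the regions' range, 48 to 56.7%. A match is a stretch of letters and not a bound site.

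By the ratio of the shares, the CTCF core stood farthest from the tiles. It matched in 32 regions (2.44%, 95% Wilson interval 1.73 to 3.42%) and in 0.277% of tiles, and at middle GC it matched in 3.06% of regions and 0.524% of tiles. Among promoter regions it matched in 0.595%, and among intronic regions in 1.37%. The 32 regions had a median score of 27 in both replicates, and 2 of them, near Tef and Rbm15 (named after their values were seen), were found in both replicates. The Tef region lay 10.5 kb downstream of the TSS and scored 54 and 49, and the Rbm15 region lay 23.5 kb upstream and scored 34 and 31.

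The ETS, SP, NRF1 and CREB strings also matched in a larger share of regions than of tiles. Each of these 4 strings contains a CpG, and the windows of middle GC were limited by GC content but not by CpG content. Over all windows the median CpG observed/expected was 0.299 in regions and 0.154 in tiles, and its part in these matches was not tested. The ETS string CCGGAAG matched in 5.26% of regions and 0.962% of tiles, and at middle GC in 4.81% and 1.90%. The GC box GGGGCGGG, bound by SP factors, matched in 5.72% and 0.899%, and at middle GC in 3.35% and 1.95%. NRF1 letters (GCATGCGC) matched in 1.14% and 0.326%, and at middle GC in 1.46% and 0.595%. These were 15 regions, and by replicate the share was 0.452% (2 of 442) in replicate 1 and 1.39% (14 of 1004) in replicate 2. Those of the cyclic AMP response element (TGACGTCA) matched in 0.610% (8 regions) and 0.184%, and at middle GC in 0.729% and 0.280%. In promoter regions the same 4 strings matched in 12.36%, 20.98%, 3.40% and 1.72% of windows. The CCAAT box CCAATNA and the YY1 string AAGATGGC, found in 13.5% and 3.22% of promoter windows, did not share this direction, and neither string contains a CpG. The CCAAT box matched in 12.2% of regions and 13.7% of tiles, and at middle GC in 11.7% and 10.4%, so that the order turned. YY1 letters matched in 1.22% and 1.83%, and at middle GC in 1.46% and 2.18%. By replicate the YY1 share was 1.81% (8 of 442) in replicate 1, close to that of tiles, and 0.896% (9 of 1004) in replicate 2.

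For strings of pluripotency factors the ratio to tiles over all windows was smaller, and it moved with base composition. The KLF string GGGNGTGG matched in 16.8% of regions and 6.98% of tiles, and at middle GC in 16.5% and 12.9%. The octamer ATGCAAAT, bound by POU5F1, matched in 2.52% (interval 1.80 to 3.51%) and 1.99%, and at middle GC in 2.77% and 1.05%. Over all windows it matched in 2.5% of intronic and 3.05% of gene-poor intergenic regions. For the SOX core ACAATGG the shares were 5.49% and 4.76%, and at middle GC 5.69% and 4.17%. For the ESRRB string TCAAGGTCA they were 1.30% (interval 0.811 to 2.07%) and 0.779%, but at middle GC 0.875% and 0.908%, so that the order turned.

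For the remaining strings the shares of regions and tiles lay closer at middle GC. ZIC letters (CAGCAGG) matched in 14.02% of regions and 7.56% of tiles, but at middle GC in 16.5% and 13.5%. E-box letters (CACGTG) matched in 5.87% and 3.29%, but at middle GC in 5.25% and 4.89%. The AP-1 string TGANTCA matched in 9.07% and 10.1%, and at middle GC in 9.77% and 9.24%. The TEAD string GGAATGT matched in 4.34% and 4.79%, and at middle GC in 4.96% and 4.58%. For AP-1 and TEAD the regions thus lay below the tiles overall and above them at middle GC. A CTCF core can contain ZIC letters, and the 2 matches overlapped in 5 regions. KLF letters and a GC box overlapped in 5 regions as well. Among the 32851 RefSeq promoters of 300 bp, the CTCF core matched in 0.557%, the ETS string in 8.86% and the GC box in 16.5%.

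**Figure D4:**
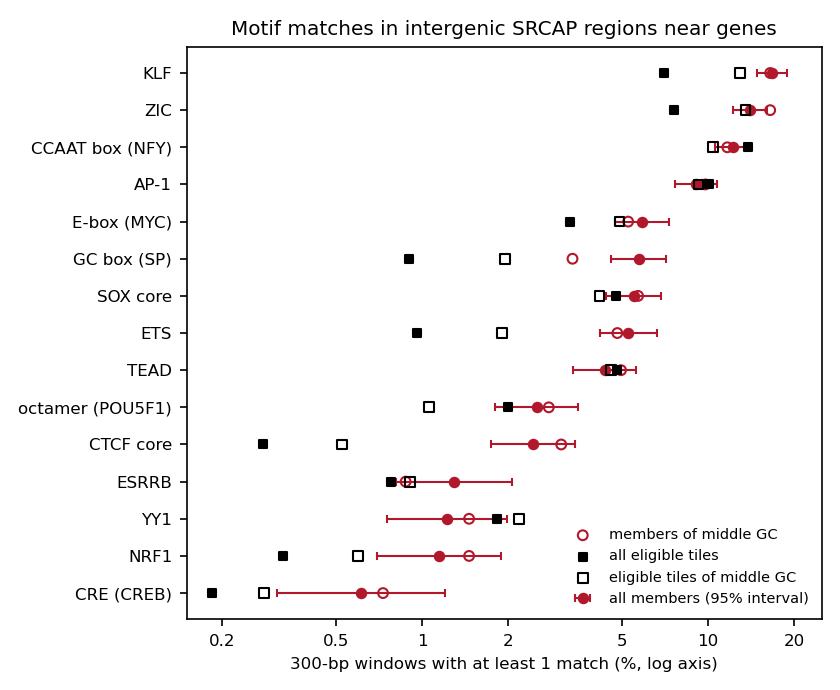
Share of 300-bp windows with at least 1 match (%, log axis) for each motif, with filled circles for all 1312 intergenic regions and their 95% Wilson intervals, open circles for the 686 of middle GC, filled squares for all eligible tiles and open squares for tiles of middle GC. The CTCF core and the ETS string lie to the right of both kinds of tile, at 2.44% and 5.26%, while the intervals of AP-1 and TEAD take in both.

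Intergenic regions occurred at every distance that the rule allows. Their median distance to the nearest coding TSS was 16.3 kb, against 18246 bp for eligible tiles, with 16295 bp for the replicate 1 list and 15800.5 bp for the replicate 2 list. Per Mb of eligible sequence there were 4.77 regions (95% Poisson interval 4.52 to 5.04). The density was 4.08 at 2 to 5 kb (interval 3.41 to 4.85), 5.62 at 5 to 10 kb (4.96 to 6.36), 5.54 at 10 to 20 kb (5.00 to 6.12) and 4.21 at 20 to 50 kb (3.86 to 4.58). Thus the bins from 5 to 20 kb held more regions per Mb than the bin beyond, and their intervals do not overlap it. For regions found in both replicates it was 0.281 at 2 to 5 kb (0.128 to 0.533), 0.613 at 5 to 10 kb (0.407 to 0.886), 0.694 at 10 to 20 kb (0.514 to 0.918) and 0.379 at 20 to 50 kb (0.280 to 0.503). Of these intervals, that of 10 to 20 kb lay above that of 20 to 50 kb, and the others overlapped.

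More regions lay upstream of the nearest coding TSS (795) than downstream (517), but per Mb of eligible sequence the order was the opposite. There were 5.45 per Mb downstream (interval 4.99 to 5.94) and 4.42 upstream (4.11 to 4.73), so that 60.6% lay upstream against 65.5% of tiles. At 5 to 10 kb the densities were 5.58 downstream and 5.64 upstream, with intervals that overlap. For regions found in both replicates the intervals also overlapped, with 0.558 downstream (0.418 to 0.730) and 0.450 upstream (0.357 to 0.559). Between genes that point towards each other lay 20.5% of the regions and 16.5% of the tiles. Between genes that point away from each other it was 25.9% and 29.4%, and between genes of 1 direction 53.4% and 53.9%.

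Density differed between chromosomes. It was 8.32 per Mb on chromosome 8 (interval 6.71 to 10.2), 6.57 on chromosome 11 (5.34 to 7.99) and 2.14 on chromosome X (1.52 to 2.92). On chromosome Y 6 regions in 0.433 Mb gave 13.9 (5.08 to 30.1), and 5 of these 6 were nearest to Gm21860. The number of copies of X and Y per cell was not taken into account.

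The limits of the rule passed through regions of like composition. The 42 regions 2 to 2.5 kb from the nearest TSS had a median GC content of 53.3%, and the 59 intergenic regions 1.5 to 2 kb from it had 52.7%. The 57 regions 45 to 50 kb from a coding TSS had 50.7%, and the 71 at 50 to 55 kb had 51.3%. The 71 regions with 40 to 50% of masked bases had 48.3%, and the 69 with 50 to 60% had 48.0%. Between 3 and 7 regions of each of these sets were found in both replicates.

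Of 21938 coding genes, 1192 (5.43%) were nearest to at least 1 intergenic region and 132 (0.602%) were nearest to at least 1 found in both replicates. A SRCAP peak overlapped the promoter window, 1000 bp upstream to 500 bp downstream of a TSS, of 34% of coding genes in either replicate and of 12% in both. Among the 1192 genes the share with such a peak was 40.1% (interval 37.4 to 42.9%), against 33.1% of the 17481 genes nearest to at least 1 eligible tile, and in both replicates it was 15.02% against 11.48%. By replicate, 19.3% of the 1192 had a promoter peak in replicate 1 and 35.8% in replicate 2, against 15.1% and 29.5% of the 17481.

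Counted by region, the share with a promoter peak at the nearest gene moved with distance. Of the 131 regions 2 to 5 kb from a coding TSS it was 21.4% (interval 15.2 to 29.2%), below the 30.5% of eligible tiles at that distance. At 5 to 10 kb it was 37.4% (31.7 to 43.4%) against 33.3% of tiles, and at 10 to 20 kb 39.6% (34.9 to 44.6%) against 35.4%. Of the 533 regions 20 to 50 kb away it was 47.5% (43.3 to 51.7%) against 37.2%, so that the regions lay under the tiles in the nearest bin and above them in the farthest.

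No difference in recurrence was detected between regions by the promoter of their nearest gene. Of 532 regions whose nearest gene had a promoter peak, 57 (10.7%) were found in both replicates, and of the other 780 it was 77 (9.87%), with an odds ratio of 1.10 (exact test, adjusted p = 0.772).

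Genes known to act in pluripotency, lineage choice, signalling, and H2A.Z exchange or chromatin remodeling were looked up next, 113 in 4 lists that were chosen with earlier results of these data known. An intergenic region was nearest to 11 of 30 pluripotency genes (36.7%), 9 of 32 lineage genes (28.1%), 9 of 32 signalling genes (28.1%) and 4 of 19 genes of H2A.Z exchange and chromatin remodeling (21.1%), against 5.43% of all coding genes. Per Mb of the eligible sequence nearest to these genes, the regions numbered 13.6 at pluripotency genes (95% Poisson interval 7.02 to 23.7), 9.29 at lineage genes (4.25 to 17.6) and 13.3 at signalling genes (7.07 to 22.7), against 4.77 for all. At genes of H2A.Z exchange and chromatin remodeling they numbered 24.6 (6.70 to 63.0, from 4 regions in 0.163 Mb), and all 4 were called in replicate 2 only. No set test was run on the lists.

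At pluripotency genes, 2 of 12 regions were found in both replicates, against 10.2% of all 1312 intergenic regions, and no test was run on counts this small. The region 9.19 kb upstream of Gbx2, a homeobox factor that acts below LIF signalling (chr1:89940174-89940560), scored 61 in replicate 1 and 55 in replicate 2. The region 16.9 kb downstream of Klf4, which encodes a KLF factor of the reprogramming set (chr4:55514579-55515206), scored 53 and 43 and was CpG-island-like. Neither gene had a peak at its own promoter in either replicate.

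The other 10 regions at pluripotency genes were called in a single replicate, 8 of them in replicate 2. The highest of these was 4.73 kb upstream of Nanog, the homeobox factor of naive pluripotency (chr6:122702492-122703032), with a score of 79 in replicate 2 and no peak in replicate 1. A region 13.99 kb upstream of Zfp42, a zinc finger gene used as a marker of pluripotency, scored 46, and here the promoter of the gene was also covered in both replicates. Regions at Mycn (38), Klf2 (32), Klf5 (30), Foxd3 (28) and Prdm14 (22) were likewise called in replicate 2 only. Fbxo15 had 1 in replicate 1 (score 29). No intergenic region was nearest to Pou5f1 or Sox2, for which the eligible sequence measured 7.5 kb and 11.1 kb.

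At signalling genes, 3 of 13 regions were found in both replicates, against 10.2% of all intergenic regions, again without a test. The region 27.5 kb upstream of Id2, an inhibitor of basic helix-loop-helix factors induced by BMP (chr12:25124498-25124814), scored 26 and 60, and its nearest TSS of any kind was 4.52 kb away. The region 35.5 kb downstream of the TSS of Lif, the cytokine that keeps mESC undifferentiated (chr11:4302402-4302834), scored 23 and 68. The region 24.7 kb upstream of Tcf7l1, a repressor of WNT target genes (chr6:72813699-72814113), scored 23 and 43.

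A second region, 6.12 kb upstream of Tcf7l1, scored 64 in replicate 2 only. The highest score among signalling genes was 84 in replicate 2, at a region 24.1 kb upstream of Spry2, an inhibitor of FGF signalling. Id2 had a second region 12.48 kb downstream, with a score of 43 in replicate 2. Smad7, an inhibitor of TGF-beta signalling, had a region in each replicate at different places, and Id1 (25), Socs3 (19), Lifr (15) and Wnt5a (23 in replicate 1) had 1 each.

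Against 10.2% of all intergenic regions, 1 of 9 regions at lineage genes was found in both replicates. It lay 5.996 kb downstream of the TSS of Isl1, a LIM homeobox factor of heart and motor neuron development (chr13:116297178-116297531), and scored 13 and 22, near the lowest score of the lists. The highest score was 55 in replicate 2, at a region 4.52 kb upstream of Lefty2, an inhibitor of Nodal signalling. Neurog1 (33), Otx2 (29), T (27) and Cdx2 (25) had a region in replicate 2 only, and Sox1 (17) and Pax7 (13) had 1 in replicate 1 only. None of the 4 regions at genes of H2A.Z exchange and chromatin remodeling was found in both replicates. They lay near Anp32e, a chaperone that removes H2A.Z (64 in replicate 2), Chd4, the ATPase of the NuRD complex (51), Yeats4 (14) and Actl6a (13), and the last pair encode subunits that the SRCAP complex shares with other complexes.

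**Figure D5:**
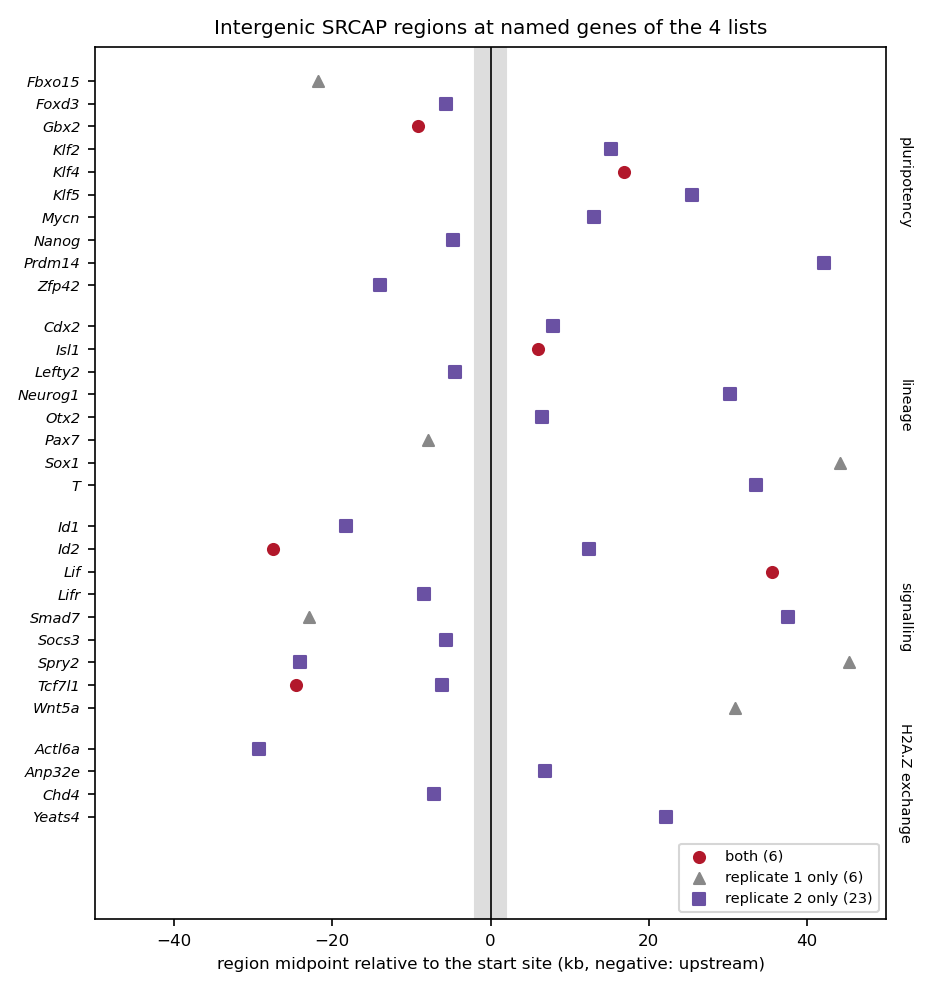
Position of 35 intergenic regions at genes of the 4 lists relative to the TSS of the nearest coding gene (kb, negative upstream), with circles for regions found in both replicates, triangles for replicate 1 only and squares for replicate 2 only, and a grey band for the 2 kb on each side that the rule leaves out. The 6 circles are at Gbx2, Klf4, Isl1, Id2, Lif and Tcf7l1, and 23 of the 35 regions are squares.

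Few genes had more than 1 intergenic region. Of the 1192 genes, 1083 were nearest to 1 region, 102 to 2, 4 to 3, 2 to 4 and 1 to 5. The gene with 5 was Gm21860, in 18.9 kb of eligible sequence, where 15.98 to 75.2% of the 31-mers of a region occurred elsewhere. Ptma, the gene of prothymosin alpha, and the neighbouring testis gene Tex44 had 4 each, so that 8 regions fell within chr1:86434636-86532630, of which 1 at each gene was found in both replicates with scores of 26 and 34 at Ptma and of 35 and 40 at Tex44.

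Scd2, a stearoyl-CoA desaturase, had 3 regions upstream and 2 of them were found in both replicates. The one at 26.7 kb scored 22 and 29, and the one at 9.24 kb scored 28 and 35. Rps6ka1 had 3 as well, but those at 47.7 kb (57) and 19.9 kb (72) downstream of its TSS were called in replicate 2 only. The 3 regions of Gm5799 and the 3 of Mrps31 were each called in a single replicate, and those of Gm5799 lay in multi-copy sequence with 63.8 to 100% of 31-mers elsewhere.

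Intergenic regions were mostly solitary. When regions were joined at the distance commonly used to stitch enhancers into clusters, 134 regions fell into 65 clusters and 1178 stood alone, and 61 clusters held 2 regions and 4 held 3. The clusters had a median span of 5.91 kb. Of the regions in clusters 14 of 134 were found in both replicates (10.4%, interval 6.33 to 16.8%), and of the solitary ones 120 of 1178 (10.2%, interval 8.59 to 12.05%), with an odds ratio of 1.03 (exact test, adjusted p = 0.881). The nearest other SRCAP region of any kind lay at a median of 27.2 kb (quartiles 12.6 and 53.6 kb). Within the same stitching distance, 327 of the 1312 (24.9%) had another SRCAP region.

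Most of the regions lay in sequence found at 1 place. Of the 1312, 954 (72.7%) held no 31-mer that occurs elsewhere in the chromosomes, and 34 (2.59%) held at least 50% of such 31-mers. Among the 134 found in both replicates, 83 held none and 6 held at least 50%, and without the 34 multi-copy regions the share found in both was 10.0%.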

How the data were processed

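CUT&Tag for GFP mapped SRCAP-YPet in 2 replicates of SYAT cells in the control condition, with Drosophila nuclei added as spike-in per the labels. For each sample the authors deposited a peak list called in that sample alone, giving coordinates, a name and a score for each peak. The submitters' processing notes name STAR, Picard and MACS2 with the builds mm10 and dm6 and give no versions. The study's reporting lists versions of its tools, which are not repeated here. The study's methods for CUT&Tag describe keeping reads aligned to 1 place on the autosomes, X and Y, dropping duplicates, thinning the libraries by their Drosophila reads and leaving out blacklisted regions. The study's reporting states peak calling on paired-end alignments against an input library. Each list holds 6 mitochondrial peaks, so the limit to autosomes, X and Y was not in force for these CUT&Tag lists. Which of the other steps shaped them, and whether an input was used for them, is not known. The deposited score took whole values from 13 upwards in both lists and was read as 10 times the −log10 of the q-value, cut to a whole number. The lists hold no read count, fold enrichment or summit.

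Peaks sharing at least 1 base were merged and placed by midpoint with GENCODE M21 and the RefSeq sequence of GRCm38. A region took its highest score in each list. Promoter regions had a midpoint within 1 kb of a TSS and intronic regions in an intron over 2 kb from every TSS, and both were held to the same 50% limit on masked bases as the gene-poor regions were. Shares carry 95% Wilson intervals and densities exact Poisson intervals. P-values of the 6 two-sided Fisher's exact tests carry a Benjamini-Hochberg adjustment. Eligible tiles were windows of 300 bp without unknown bases. Motif strings were matched on both strands. Multi-copy content was the share of 31-mers that occur elsewhere on chromosomes 1 to 19, X and Y.

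Regions were named by a rule: the 12 found in both replicates with the best worst rank, those at genes of the 4 lists (found in both by name and value, the others by examples of the highest score), those at coding genes nearest to at least 3 regions, and those of the largest clusters. The regions and lists were chosen with earlier results of these data known. The alternatives covered the score, list length, annotation, masking, merging, overlap, CpG thresholds, window, stitching distance, promoter window and each replicate, and 4 were added after the data were seen: leaving out regions that RefSeq annotates, leaving out multi-copy regions, motif shares at middle GC and the printed sequence near Nanog. Values of a few single genes are not reported here, though the counts include them. The code was tested on simulated regions before use. The software was Python 3.11.15 with scipy 1.17.1, statsmodels 0.14.6, pandas 2.3.3, numpy 2.4.6 and matplotlib 3.10.9.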

Additional observations from a re-analysis of the deposited data

How the results depend on the processing

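The 1312 regions became 208 when both lists were held to a score of at least 50 and 704 with lists of equal length, and leaving out each replicate in turn gave 442 to 1005. The coding genes nearest to at least 1 region numbered 1192, and 199 at a score of at least 50, 667 with lists of equal length and 429 to 933 without each replicate. The clusters numbered 65, and 4 at a score of at least 50, 102 when only protein-coding transcripts were used for the rule, 42 with under 25% of masked bases, 20 with lists of equal length, 32 with a stitching distance of 5 kb and 6 to 42 without each replicate. The median distance of 16.3 kb became 14.8, 17.8 and 15.7 kb with a score of at least 50, protein-coding transcripts only and lists of equal length, and 15.8 to 16.3 kb without each replicate. The median GC content of 52.3% became 55% at a score of at least 50 and 53.5% with lists of equal length, and 52.0 to 53.5% without each replicate.

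The share found in both replicates, 10.2%, was 12.02% at a score of at least 50, 12.3% with protein-coding transcripts only, 12.6% with lists of equal length and 7.55% when peaks had to overlap over 50% or more of each. It has no value without a replicate. The CpG-island-like share of 9.76% was 20.7% at a score of at least 50, 14.04% with protein-coding transcripts only, 6.17% with a GC content of at least 55% and an observed/expected ratio of at least 0.65, 8.12% without regions that RefSeq annotates, and 10.2 to 10.8% without each replicate. The share of nearest genes with a promoter peak was 40.1%, and 15.02% when the peak was required in both replicates.

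The tests against promoter regions and of CpG-island-like regions held under a score of at least 50, masking under 25%, lists of equal length and an overlap of at least 50%. The odds ratio against intronic regions stayed above 1 but lost its call at a score of at least 50 (1.61), with lists of equal length (1.26) and with an overlap of at least 50% (1.30). The odds ratio against gene-poor regions, 1.22, turned to 0.487 at a score of at least 50 and 0.992 with lists of equal length. That of clustered against solitary regions turned to 0.911, 0.957 and, with an overlap of at least 50%, 0.651. That by the promoter of the nearest gene turned to 0.752 at a score of at least 50 and 0.974 with lists of equal length. These 3 passed no threshold under any alternative (adjusted p from 0.106 to 1), and the cause was not tested. Motif shares in 500-bp windows were higher than in 300-bp windows for all 15 strings.

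No paired analysis was possible because both samples belong to a single group. The unknown depth limits what single-replicate regions show: whether a region called in 1 list was missed or absent in the other cannot be told apart, for the 308 found in replicate 1 only as for the 870 found in replicate 2 only, and the 10.2% is a share under these thresholds.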
